A study of Mus musculus with 24 samples.

Results

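Saa3, Lcn2, Hp, Slpi, Cp and Lyz2 encode secreted proteins of the acute-phase response and of antimicrobial defence. They were taken by gene symbol from the count table, and these 6 of 55401 genes were followed in every library of the study. The cells were macrophages grown from the bone marrow of wild-type C57BL/6J mice in medium with 15% L929 conditioned medium, a source of the growth factor M-CSF, and plated on day 6. At 3 h and at 18 h the cells were untreated, had received S14 at 30 µM or had received lipopolysaccharide (LPS) at 100 ng/mL, with 4 libraries in each of the 6 groups. S14 is the sphingomyelin d18:1/14:0, a membrane sphingolipid, and LPS is a component of the outer membrane of Gram-negative bacteria that Toll-like receptor 4 recognises. The untreated cells received neither agent. The labels call them untreated and the columns of the counts call them "Veh", and the sources used here name no solvent given to them. The design text gives 4 mice, and the labels do not tie a library to an animal, so the spread between the libraries of a group may be in part technical.

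The acute-phase response is the change in secreted proteins that follows infection or injury. The liver makes most of these proteins for the blood, and macrophages can make some of them where they reside. Saa3 encodes serum amyloid A3, an apolipoprotein-like acute-phase protein made largely outside the liver. Hp encodes haptoglobin, which binds free haemoglobin, and Cp encodes ceruloplasmin, a copper-carrying ferroxidase. Lcn2 encodes lipocalin 2, which withholds iron from bacteria by binding their siderophores. Slpi encodes secretory leukocyte protease inhibitor, which blocks neutrophil elastase, and Lyz2 encodes lysozyme M, which cleaves bacterial cell walls and is a standard marker of myeloid cells. Transcription of many acute-phase genes depends on factors of the C/EBP, NF-kB and STAT families.

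RefSeq promoter windows matched 5 of the 6 genes, all except Hp. The 250 bases before the start are shown for the 2 genes with the largest responses, Saa3 and Lcn2, and for Slpi, whose libraries overlapped between the 2 agents at 18 h. They are written 5′ to 3′ along the gene's strand, and capitals mark matches to the motifs searched on both strands: TTNNGNAA for C/EBP, GGG and CC with any 5 bases between them for NF-kB, TTCNNNGAA for STAT, GAAA and GAAA with any 2 bases between them for the interferon-stimulated response element (ISRE) and TATAAA for the TATA box. In GRCm38.p6 they lie at chr7:46715677-46715926 (- strand) for Saa3, chr2:32387740-32387989 (- strand) for Lcn2 and chr2:164356508-164356757 (- strand) for Slpi. The start is that of RefSeq. GENCODE M21 places the first base of Lcn2 at 32388252 and that of Slpi at 164389095, so both windows lie inside the GENCODE genes. The Saa3 window overlaps its GENCODE gene, whose first base is 46715700.
Saa3: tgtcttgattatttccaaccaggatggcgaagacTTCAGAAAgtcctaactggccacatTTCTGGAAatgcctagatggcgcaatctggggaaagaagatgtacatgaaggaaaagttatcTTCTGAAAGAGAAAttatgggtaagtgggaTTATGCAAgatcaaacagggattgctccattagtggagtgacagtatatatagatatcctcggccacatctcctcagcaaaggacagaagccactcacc
Lcn2: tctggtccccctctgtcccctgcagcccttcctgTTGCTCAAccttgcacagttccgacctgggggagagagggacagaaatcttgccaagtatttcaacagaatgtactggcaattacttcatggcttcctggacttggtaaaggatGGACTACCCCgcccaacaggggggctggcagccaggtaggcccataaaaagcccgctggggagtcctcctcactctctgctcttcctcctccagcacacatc
Slpi: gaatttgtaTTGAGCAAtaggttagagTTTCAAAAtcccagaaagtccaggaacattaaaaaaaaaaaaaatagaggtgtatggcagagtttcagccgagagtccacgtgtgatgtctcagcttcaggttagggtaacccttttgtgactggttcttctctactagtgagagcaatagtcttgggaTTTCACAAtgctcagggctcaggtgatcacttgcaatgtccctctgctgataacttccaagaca
The Saa3 window held 4 C/EBP matches, TTCAGAAA, TTCTGGAA, TTCTGAAA and TTATGCAA, and 1 ISRE match, GAAAGAGAAA, which overlaps the third of them. The Lcn2 window held 1 C/EBP match, TTGCTCAA, and 1 NF-kB match, GGACTACCCC, at bases -102 to -93 from the start. The Slpi window held 3 C/EBP matches, TTGAGCAA, TTTCAAAA and TTTCACAA. Of all 32851 RefSeq windows of this length, 36.8% held a C/EBP match, 45.8% an NF-kB match, 7.0% a STAT match, 3.0% an ISRE match and 12.4% a TATA box. The 1 Lyz2 window and both Cp windows also held a C/EBP match, so that motif was in every window of these genes and does not set Saa3, Lcn2 and Slpi apart. In 1 of the Cp windows there was also an NF-kB match, GGTTTTTCCC, at bases -146 to -137, and a TATA box, TATAAA. These matches are descriptions of letters, not of bound sites.

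Reads came from the 3′ ends of polyadenylated RNA, and libraries held 3334182 to 6350251 reads in genes. Levels are CPM, the reads of a gene per 1000000 reads of the scaled library, as mean ± SD with n = 4. In bulk RNA, fewer cells that express a gene and less of its RNA per cell cannot be told apart. Of the 55401 genes, 11717 passed the filter on low counts and were tested, among them all 6 described here. Of the 12 macrophage markers, Adgre1, Csf1r and Cd68 among them, all were detected in each group, and their summed level ran from 8770 to 14100 CPM over all libraries. Replicate 4 of the untreated cells at 18 h stood apart from the other libraries of its group, with the fewest genes detected of all libraries (13405), and the changes of the 6 genes that rest on it are given with and without it. Changes are log2 fold changes with their standard error (SE) from edgeR's quasi-likelihood F test, fitted over all 24 libraries. A gene was called at a Benjamini-Hochberg adjusted p under 0.05 over all tested genes. Of the 12 macrophage markers, LPS raised 4 and lowered 4 at 18 h, beside 27.3% and 28.3% of all genes. The 4 lowered were Cx3cr1 (-4.06), Csf1r (-0.57), C1qa (-0.31) and Cd68 (-0.24). S14 raised 6 and lowered 1 at 18 h, beside 12.6% and 11.6%. At 3 h LPS raised 5 and lowered 3, beside 25.3% and 30.2%, and S14 raised 2 and lowered 2, beside 9.05% and 6.2%.

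**Figure D1:**
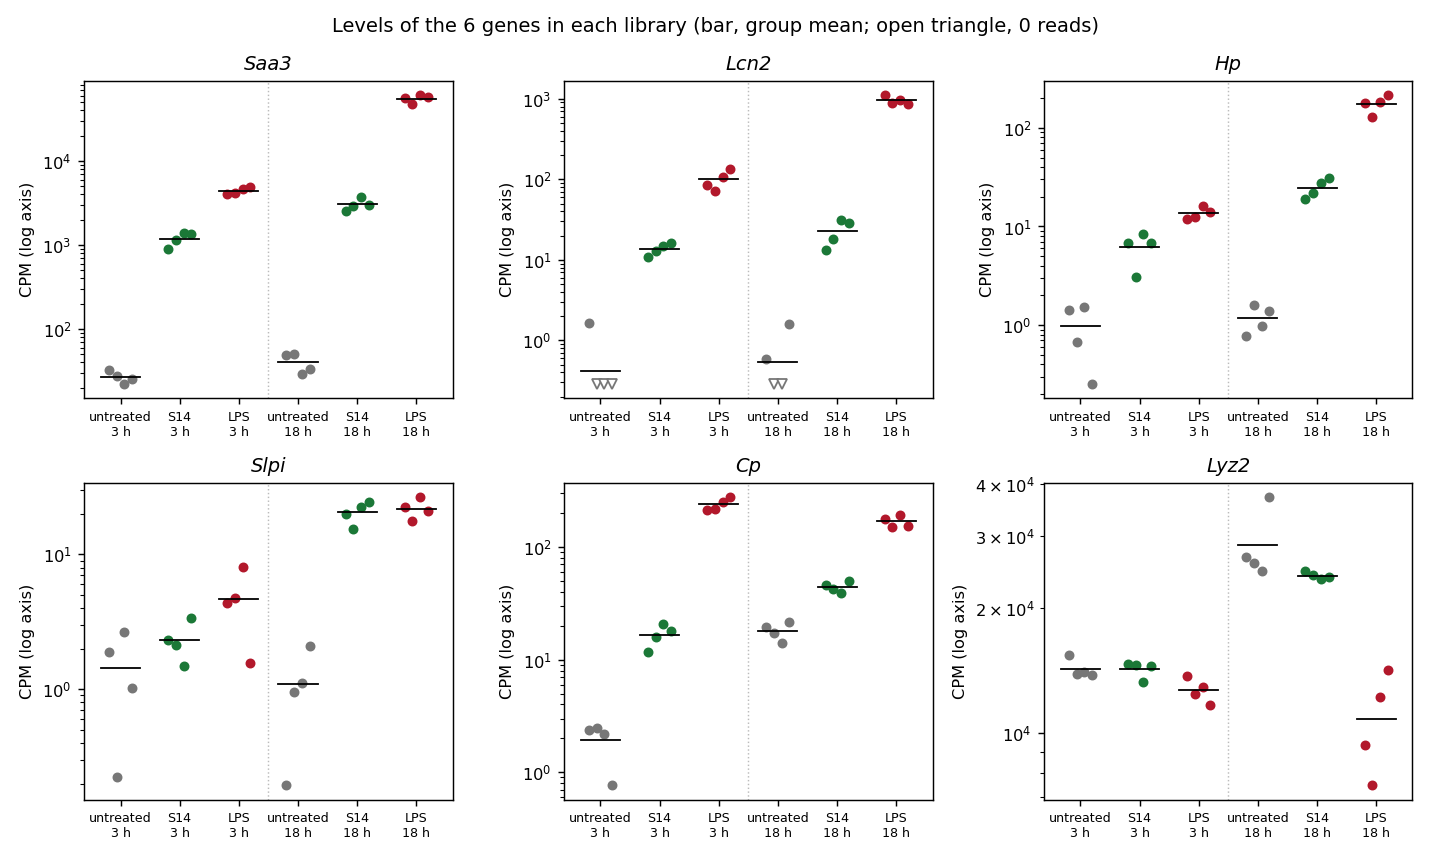
Level of each gene in CPM on a log axis, with 1 point per library, a bar at the group mean and an open triangle for a library with 0 reads; grey is untreated, green S14 and red LPS, and each panel has its own axis. Saa3, Lcn2 and Hp were highest in LPS at 18 h, the Slpi libraries of S14 and LPS overlapped at 18 h, Cp rose with time in untreated cells, and Lyz2 was lowest in LPS at 18 h.

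Saa3 (chromosome 7, 46711998 to 46715700, minus strand, GRCm38, GENCODE M21) was raised by both agents at both times. In untreated cells it stood at 32.3, 27.5, 22.4 and 25.3 CPM at 3 h and at 49.0, 50.3, 29.4 and 33.1 CPM at 18 h. S14 took it to 907, 1150, 1370 and 1340 CPM at 3 h and to 2540, 2900, 3760 and 2990 CPM at 18 h. LPS took it to 4000, 4210, 4670 and 4840 CPM at 3 h and to 55700, 47600, 60200 and 57200 CPM at 18 h. The 4 treated groups did not overlap with each other or with untreated cells, and their order from low to high was S14 at 3 h, S14 at 18 h, LPS at 3 h and LPS at 18 h. Against untreated cells, S14 gave a log2 fold change of 5.47 (SE 0.197, adjusted p = 6.77e-15) at 3 h and 6.24 (SE 0.196, adjusted p = 1.64e-15) at 18 h, which are folds of 44.4 and 75.7. LPS gave 7.37 (SE 0.210, adjusted p = 6.11e-18) at 3 h and 10.42 (SE 0.230, adjusted p = 1.13e-19) at 18 h, folds of 165 and 1370. The changes at 18 h were 6.165 for S14 and 10.34 for LPS without replicate 4 of the untreated cells at 18 h. In LPS at 18 h, 4.83% ± 0.525 of all reads in genes came from Saa3, and it was the gene with the second most reads. In S14 at 18 h its share was 0.316% ± 0.0521. In untreated cells it was higher at 18 h than at 3 h by 0.58 (SE 0.196, adjusted p = 0.0229), or 0.66 without that replicate, with overlapping libraries. That last call was lost without replicate 1 or 2 at 18 h, without replicate 3 or 4 at 3 h, and when genes of low count were kept (adjusted p from 0.0546 to 0.0833).

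The liver-type serum amyloid genes Saa1 and Saa2 are near-identical copies of each other, so reads can be split between them and their single values are uncertain. Saa1 had 0 reads in untreated cells at both times and in S14 at 18 h, 2 reads in S14 at 3 h, 15 in LPS at 3 h and 271 in LPS at 18 h. In LPS at 18 h Saa1 was at least 116-fold higher than in untreated cells, taking a floor of 3 reads over the untreated group. Saa2 had reads in LPS at 18 h, 36 in all, and 0 in untreated cells, in S14 at either time and in LPS at 3 h.

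Hp, the haptoglobin gene (chromosome 8, 109575128 to 109579172, minus strand), also rose with both agents at both times, at lower levels. It stood at 1.41, 0.676, 1.54 and 0.255 CPM in untreated cells at 3 h and at 0.774, 1.58, 0.979 and 1.40 CPM at 18 h. With S14 it stood at 6.72, 3.06, 8.43 and 6.78 CPM at 3 h and at 19.1, 22.0, 27.5 and 30.8 CPM at 18 h. With LPS it stood at 11.9, 12.5, 16.0 and 14.0 CPM at 3 h and at 180, 130, 181 and 213 CPM at 18 h. Each treated group lay above all untreated libraries, and S14 at 18 h lay above LPS at 3 h without overlap. The log2 fold changes for S14 were 2.64 (SE 0.375, adjusted p = 6.05e-07) at 3 h and 4.35 (SE 0.269, adjusted p = 8.83e-16) at 18 h. Those for LPS were 3.75 (SE 0.335, adjusted p = 1.18e-12) and 7.18 (SE 0.243, adjusted p = 1.38e-25). At 18 h the changes were 4.43 for S14 and 7.255 for LPS without replicate 4 of the untreated cells. Untreated cells showed no called difference between the times (0.26, SE 0.500, adjusted p = 0.717, or 0.18 without that replicate).

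Cp, the ceruloplasmin gene (chromosome 3, 19957054 to 20009145, plus strand), was raised by both agents at both times and also rose with time in untreated cells. Its untreated libraries stood at 2.35, 2.48, 2.20 and 0.766 CPM at 3 h and at 19.5, 17.2, 14.0 and 21.7 CPM at 18 h, without overlap. This was a rise of 3.17 on the log2 scale (SE 0.237, adjusted p = 2.56e-14), 8.98-fold, and it was 3.06 without replicate 4 of the 18 h group. S14 gave 11.6, 16.0, 20.7 and 18.0 CPM at 3 h and 45.8, 42.2, 39.4 and 49.4 CPM at 18 h. LPS gave 214, 218, 253 and 277 CPM at 3 h and 179, 150, 194 and 154 CPM at 18 h. S14 at 3 h and untreated cells at 18 h overlapped, and LPS at 18 h lay below LPS at 3 h in every library. Against untreated cells of the same time, S14 raised Cp by 3.06 (SE 0.245, adjusted p = 3.19e-13) at 3 h and by 1.30 (SE 0.142, adjusted p = 2.81e-09) at 18 h. LPS raised it by 6.91 (SE 0.196, adjusted p = 2.25e-29) and by 3.23 (SE 0.138, adjusted p = 7.14e-23). Leaving out replicate 4 of the untreated cells at 18 h gave 1.40 for S14 and 3.34 for LPS at 18 h. The S14 call at 18 h was not made when libraries were scaled to spike-in reads (0.26, adjusted p = 0.496), and was made under that scaling without the same replicate (0.94, adjusted p = 0.00808). Hps3 lies on the opposite strand and overlaps Cp, and the labels and processing notes used here give no strand setting for the counting, so reads of the overlap cannot be assigned between them. Hps3 levels ran from 14.2 to 40.4 CPM over all libraries, and its largest change against untreated cells was -0.55 (SE 0.168, adjusted p = 0.00475), in LPS at 18 h, where Cp was higher than in untreated cells.

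Lcn2, the lipocalin 2 gene (chromosome 2, 32384633 to 32388252, minus strand), was near absent in untreated cells. Its untreated reads were 7, 0, 0 and 0 at 3 h and 3, 0, 0 and 9 at 18 h, which are group means of 0.412 ± 0.824 and 0.539 ± 0.743 CPM. With S14 it stood at 10.9, 12.9, 14.8 and 16.1 CPM at 3 h and at 13.2, 18.1, 31.0 and 28.3 CPM at 18 h, ranges that overlap. With LPS it stood at 84.9, 72.1, 106 and 136 CPM at 3 h and at 1100, 887, 968 and 868 CPM at 18 h, ranges that do not. Both treatments lay above every untreated library at both times. S14 gave log2 fold changes of 5.00 (SE 0.727, adjusted p = 3.49e-05) at 3 h and 5.43 (SE 0.578, adjusted p = 7.52e-07) at 18 h. LPS gave 7.84 (SE 0.535, adjusted p = 1.08e-10) and 10.84 (SE 0.440, adjusted p = 2.74e-14). These sizes rest on the few untreated reads. Without replicate 1 of the untreated cells at 3 h, whose 7 reads are all that the group holds, the fitted changes at 3 h were 9.02 for S14 and 11.87 for LPS. Without replicate 4 of the untreated cells at 18 h they were 6.90 and 12.31.

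Slpi, the protease inhibitor gene (chromosome 2, 164354070 to 164389095, minus strand), was raised at 18 h by both agents, to overlapping levels, and was raised at 3 h by LPS. Untreated libraries stood at 1.88, 0.225, 2.64 and 1.02 CPM at 3 h and at 0.194, 0.949, 1.12 and 2.10 CPM at 18 h. At 3 h, S14 gave 2.33, 2.12, 1.48 and 3.39 CPM and LPS gave 4.33, 4.73, 8.01 and 1.56 CPM, both overlapping with untreated cells. At 18 h, S14 gave 20.1, 15.4, 22.4 and 24.3 CPM and LPS gave 22.3, 17.6, 26.6 and 21.0 CPM, all above every library of the other 4 groups. The log2 fold change for S14 was 0.70 (SE 0.494, adjusted p = 0.429) at 3 h, not called, and 4.18 (SE 0.388, adjusted p = 6.25e-11) at 18 h. For LPS it was 1.67 (SE 0.458, adjusted p = 0.00208) at 3 h and 4.28 (SE 0.388, adjusted p = 2.58e-12) at 18 h. Without replicate 4 of the untreated cells at 18 h the changes at 18 h were 4.64 for S14 and 4.73 for LPS. Slpi had 934 reads in all 24 libraries, which limits the precision at 3 h.

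Lyz2, the lysozyme M gene (chromosome 10, 117277331 to 117282321, minus strand), was already abundant in untreated cells and was lower with LPS at 18 h. It stood at 15400, 13900, 14000 and 13800 CPM in untreated cells at 3 h and at 26600, 25700, 24700 and 37200 CPM at 18 h. S14 gave 14700, 14600, 13300 and 14500 CPM at 3 h and 24600, 24100, 23600 and 23800 CPM at 18 h. LPS gave 13700, 12400, 12900 and 11700 CPM at 3 h and 9360, 7460, 12200 and 14200 CPM at 18 h. Untreated cells at 18 h lay above those at 3 h in every library, by 1.00 on the log2 scale (SE 0.141, adjusted p = 6.71e-06), or 0.84 without replicate 4 of the 18 h group, the library at 37200 CPM. With LPS at 18 h the log2 fold change of Lyz2 was -1.40 (SE 0.143, adjusted p = 1.99e-08), or -1.25 without that replicate, and at 3 h the change was -0.17 (SE 0.140, adjusted p = 0.310), with all 4 LPS libraries below the untreated ones. The change with S14 was -0.001 (SE 0.140, adjusted p = 0.999) at 3 h and -0.25 (SE 0.140, adjusted p = 0.219) at 18 h, although the 4 S14 libraries at 18 h lay just below the 4 untreated ones. When libraries were scaled to spike-in reads, the S14 change at 18 h was -1.38 (adjusted p = 0.00192), beside a median of -0.98 over all genes under that scaling. Without replicate 4 of the untreated cells the S14 change was -0.09, and -0.56 (adjusted p = 0.0657) with spike-in scaling as well. By reads, Lyz2 ranked first of all genes in untreated cells at 18 h, with 3.15% ± 0.623 of reads, and sixth in LPS at 18 h, with 0.946% ± 0.275. Its neighbour Lyz1 is a near-identical copy, so some reads could belong to either gene, and Lyz1 stood at 7.49 to 21.3 CPM as group means.

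**Figure D2:**
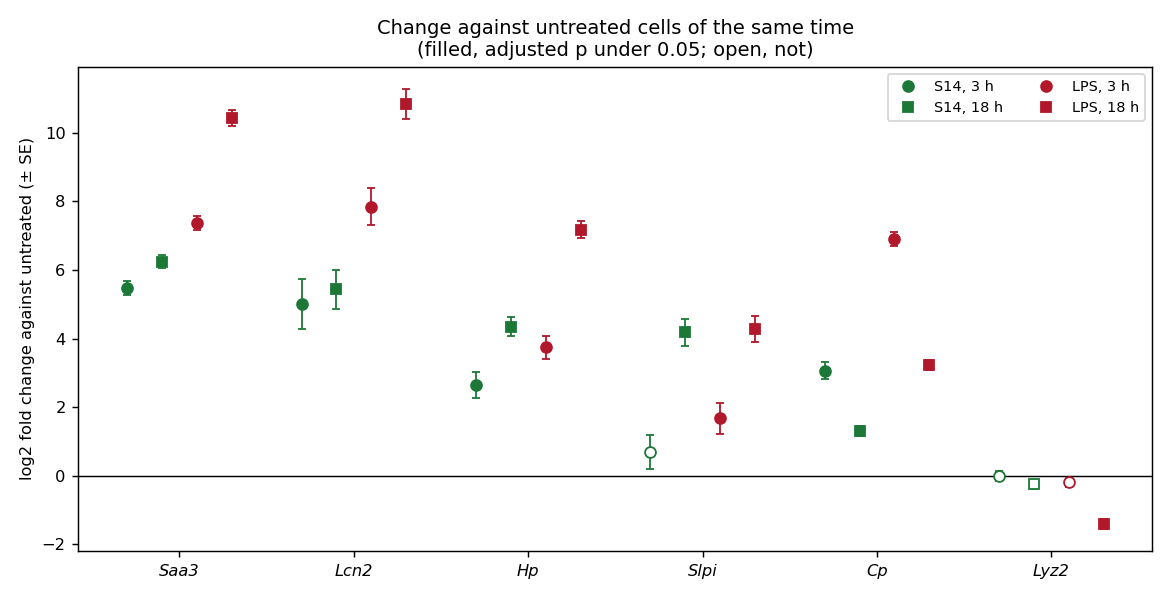
Log2 fold change of each gene against untreated cells of the same time, with its SE, for S14 (green) and LPS (red) at 3 h (circles) and 18 h (squares); filled symbols passed an adjusted p of 0.05. LPS at 18 h reached 10.42 for Saa3 and 10.84 for Lcn2, Slpi at 18 h changed by 4.18 in S14 cells and by 4.28 in LPS cells, and Lyz2 was changed by LPS at 18 h alone among these 4 comparisons.

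S14 raised 4 of the 6 genes at 3 h, all but Slpi and Lyz2, where 9.05% of all tested genes were called higher, and 5 of 6 at 18 h, all but Lyz2, where 12.6% were. It lowered 0 of them by edgeR's test at either time, where 6.20% and 11.6% of all genes were called lower. The unadjusted p was 0.168 for Slpi and 0.996 for Lyz2 at 3 h and 0.0919 for Lyz2 at 18 h, so 0 of the 6 were lower at an unadjusted p under 0.05, and DESeq2 also called 0 of them lower. LPS raised 5 of 6 at both times, all but Lyz2, against 25.3% and 27.3% of all genes. It lowered 1 of 6 at 18 h, Lyz2, against 28.3% of all genes, and by edgeR's test 0 of 6 at 3 h, against 30.2%, with 0 of 6 lower at an unadjusted p under 0.05 and 0 by DESeq2. The S14 and untreated libraries did not overlap for 4 of the 6 genes at 3 h and for all 6 at 18 h, beside 20.8% and 23.0% of all tested genes. The LPS and untreated libraries did not overlap for 5 of 6 at 3 h and for all 6 at 18 h, beside 51.5% and 44.1%. At 18 h in S14, Saa3 had the second highest log2 fold change of the 11717 tested genes, Lcn2 the fourth, Hp number 12 and Slpi number 14. In LPS at 18 h, Lcn2 was the second, Saa3 the third, Hp number 29 and Slpi number 125. The median log2 fold change of the 6 genes was 2.85 for S14 at 3 h, 4.27 for S14 at 18 h, 5.33 for LPS at 3 h and 5.73 for LPS at 18 h, beside -0.03, -0.02, -0.11 and -0.04 over all tested genes. Both agents share their untreated libraries at a given time. Between the times, untreated libraries did not overlap for 2 of 6, Cp and Lyz2, beside 32.8% of all genes. Of the 6, 3 were called higher at 18 h in untreated cells, these 2 and Saa3, beside 19.2% of all genes. By edgeR 0 were called lower, beside 19.6%, with 0 at an unadjusted p under 0.05 and 0 by DESeq2.

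The growth of an effect from 3 h to 18 h was taken as the log2 fold change at 18 h minus that at 3 h, so that a change with time in untreated cells is taken out. The effect of S14 on Slpi grew by 3.49 (SE 0.674, adjusted p = 0.000211), the ninth largest growth of all tested genes. The effect of S14 on Hp grew by 1.71 (SE 0.586, adjusted p = 0.0388) and that on Saa3 by 0.77 (SE 0.249, adjusted p = 0.0387). These values were 3.94, 1.79 and 0.69 without replicate 4 of the untreated cells at 18 h. These 3 of 6 stood beside 7.61% of all genes with growth called higher. The Hp call was lost in 9 of 24 alternatives. In 7 of these 1 library was left out, namely replicate 1 or 3 of the untreated cells at either time, replicate 2 of S14 at 3 h, or replicate 3 or 4 of S14 at 18 h (adjusted p from 0.0520 to 0.194). The Saa3 call was lost in 14 of 24 alternatives. In 9 of these 1 library was left out, namely replicate 1, 2 or 4 of the untreated cells at 3 h, replicate 3 or 4 of those at 18 h, replicate 1 or 2 of S14 at 3 h, or replicate 3 or 4 of S14 at 18 h (adjusted p from 0.0524 to 0.0994). Its value turned to -0.25 (adjusted p = 0.630) when libraries were scaled to spike-in reads, and was 0.11 (adjusted p = 0.828) when untreated replicate 4 at 18 h was also left out. The effect of S14 on Cp shrank (-1.77, SE 0.301, adjusted p = 3e-05, or -1.665 without that replicate), against 8.98% of genes called lower. For Lcn2 the growth was 0.44 (SE 1.641, adjusted p = 0.900) and for Lyz2 -0.25 (SE 0.198, adjusted p = 0.456), neither called, and without that replicate these were 1.90 and -0.09.

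The effect of LPS grew for Hp by 3.43 (SE 0.617, adjusted p = 1.15e-05), for Saa3 by 3.06 (SE 0.253, adjusted p = 1.61e-09) and for Slpi by 2.60 (SE 0.653, adjusted p = 0.000930), 3 of 6 against 25.1% of all genes. It shrank for Cp (-3.67, SE 0.267, adjusted p = 3.91e-15), and for Lyz2 the log2 fold change moved further down (-1.23, SE 0.199, adjusted p = 1.98e-05), 2 of 6 against 26.1%. Without replicate 4 of the untreated cells at 18 h the values were 3.51 for Hp, 2.98 for Saa3, 3.06 for Slpi, -3.57 for Cp and -1.07 for Lyz2. The Slpi call was not made when libraries were scaled to spike-in reads (1.65, adjusted p = 0.0943), and was made under that scaling without the same replicate (2.60, adjusted p = 0.000676). Lcn2 gave 3.00 (SE 1.778, adjusted p = 0.172), not called by edgeR and called by DESeq2 (2.89, adjusted p = 0.00188). Without replicate 4 of the untreated cells at 18 h it was 4.47 (adjusted p = 0.0945), and with spike-in scaling as well 4.00 (adjusted p = 0.000324), a call. Without replicate 1 of the untreated cells at 3 h the Lcn2 value was -1.02, because the remaining 3 libraries held 0 reads of Lcn2.

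**Figure D3:**
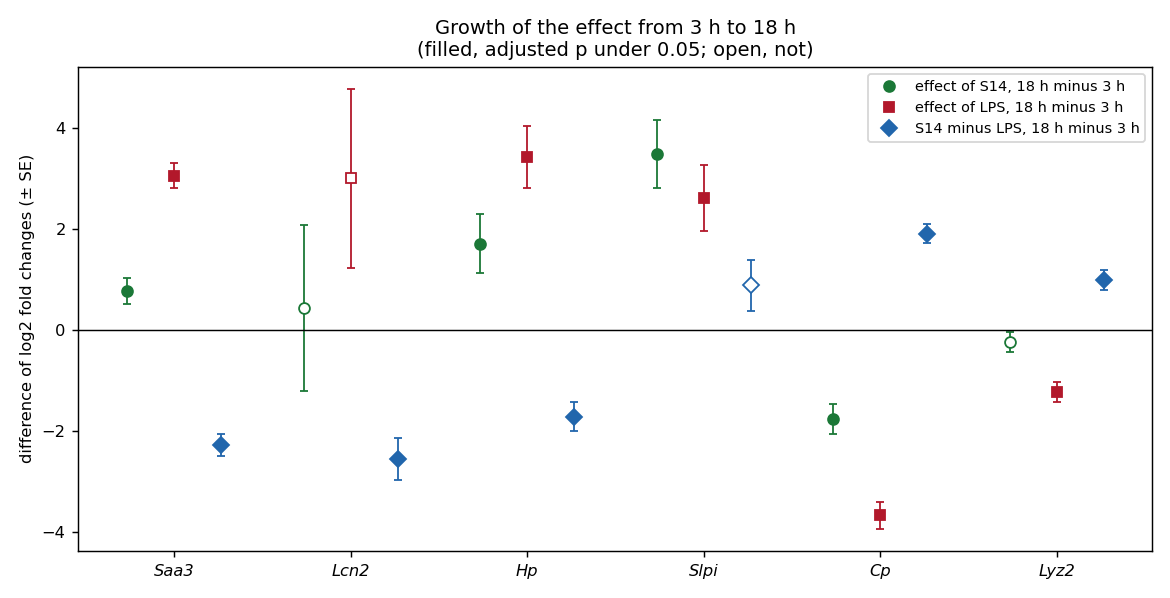
Difference between the log2 fold changes at 18 h and at 3 h, with its SE, for S14 against untreated (green circles), LPS against untreated (red squares) and S14 against LPS (blue diamonds); filled symbols passed an adjusted p of 0.05. The difference between S14 and LPS became more negative from 3 h to 18 h for Saa3, Lcn2 and Hp, where the blue diamonds lie between -2.56 and -1.72, while the growth of the Lcn2 effect was not called for either agent.

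Compared directly, S14 gave lower levels than LPS for Saa3, Lcn2, Hp and Cp at both times, 4 of 6 against 22.4% of all genes called lower at 3 h and 21.3% at 18 h. Saa3 in S14 stood at 26.9% of its LPS level at 3 h and at 5.53% at 18 h (log2 difference -1.89, SE 0.157, adjusted p = 1.52e-09, and -4.18, SE 0.172, adjusted p = 1.65e-14). Lcn2 stood at 13.7% and 2.37% (-2.85, SE 0.298, adjusted p = 1.11e-07, and -5.41, SE 0.287, adjusted p = 4.71e-12). Hp stood at 45.9% and 14.1% (-1.11, SE 0.232, adjusted p = 0.000116, and -2.83, SE 0.169, adjusted p = 2.71e-17). For Cp the order over time was the other way, with 6.88% at 3 h and 26.1% at 18 h (-3.84, SE 0.143, adjusted p = 9.09e-25, and -1.94, SE 0.128, adjusted p = 2.6e-16). The S14 and LPS libraries did not overlap for these 4 of 6 genes at 3 h, beside 42.9% of all tested genes, and for these and Lyz2, 5 of 6, at 18 h, beside 41.1%.

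Slpi in S14 stood at 94.0% of its LPS level at 18 h, a log2 difference of -0.09 (SE 0.288, adjusted p = 0.826) with overlapping libraries. At 3 h it was -0.98 (SE 0.415, adjusted p = 0.0516), which became a call without replicate 4 of LPS at 3 h (-1.27, adjusted p = 0.00905), without replicate 4 of S14 at 3 h (-1.25, adjusted p = 0.0308), with DESeq2 (adjusted p = 0.0432) and under 5 other alternatives. Lyz2 was higher in S14 than in LPS at 18 h, by 1.16 (SE 0.142, adjusted p = 6.19e-07), 1 of 6 against 21.3% of all genes called higher. This Lyz2 call at 18 h was not made when libraries were scaled to spike-in reads (0.74, adjusted p = 0.148), and was made when untreated replicate 4 at 18 h was also left out (adjusted p = 0.00415). At 3 h edgeR called 0 of 6 higher in S14 than in LPS, against 23.7% of all genes, with 0 at an unadjusted p under 0.05 and 0 by DESeq2.

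The test of whether the S14 to LPS difference itself changed between the times passed for 5 of the 6 genes. It became more negative for Saa3 (-2.29, SE 0.217, adjusted p = 2.4e-08), Lcn2 (-2.56, SE 0.415, adjusted p = 4.94e-05) and Hp (-1.72, SE 0.291, adjusted p = 6.48e-06), against 19.2% of all genes called lower. It became more positive for Cp by 1.91 (SE 0.189, adjusted p = 5.38e-11) and for Lyz2 by 0.98 (SE 0.198, adjusted p = 0.000364), against 21.5% called higher, and the Lyz2 call was not made when libraries were scaled to spike-in reads (0.82, adjusted p = 0.340), and was made when untreated replicate 4 at 18 h was also left out (adjusted p = 0.0380). For Slpi it was 0.88 (SE 0.505, adjusted p = 0.163), and 1.17 without replicate 4 of LPS at 3 h (adjusted p = 0.0486).

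Of 31 other genes of acute-phase plasma proteins, 8 had enough reads to be tested. S14 raised 3 of the 8 at 3 h, against 9.05% of all tested genes. At 18 h it raised 2 and lowered 1, against 12.6% and 11.6%. LPS raised 7 of the 8 at 3 h, against 25.3% of all tested genes. At 18 h it raised 6 and lowered 1, against 27.3% and 28.3%. C3, the central component of complement, stood at 97.0 ± 13.0 CPM in untreated cells, 344 ± 32.6 in S14 and 928 ± 72.5 in LPS at 3 h. At 18 h C3 stood at 302 ± 18.8, 942 ± 33.1 and 1370 ± 36.7 CPM. Cfb, complement factor B, was at most 2.45 CPM in every untreated library and reached 12.6 ± 3.92 CPM in S14 and 68.0 ± 9.74 CPM in LPS at 18 h. Trf, the iron carrier transferrin, was lowered at 18 h by S14 (-0.62, SE 0.109, adjusted p = 2.57e-05) and by LPS (-1.78, SE 0.116, adjusted p = 5.1e-17). Serpina3f, a serpin, and Hamp, the iron hormone hepcidin, were highest in LPS at 3 h, at 139 ± 18.0 and 11.0 ± 2.23 CPM, and stood at 5.42 ± 2.24 and 1.00 ± 0.785 CPM in LPS at 18 h. The log2 fold change of LPS was called lower at 18 h than at 3 h in 6 of these 8 genes, against 26.1% of all genes. The median difference was -3.63 in the 8, beside 0.01 over all genes. Trf is 1 of the 6, with a change of 0.13 (SE 0.111, adjusted p = 0.322) at 3 h, before it was lowered at 18 h. The effect of LPS grew for Saa3 and Hp and shrank for Cp.

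Of 27 other antimicrobial secreted proteins, 10 were tested. S14 raised 3 of the 10 at 3 h, and raised 3 and lowered 1 at 18 h. LPS raised 5 at 3 h, and raised 4 and lowered 4 at 18 h. Over all tested genes, S14 raised 9.05% at 3 h, and raised 12.6% and lowered 11.6% at 18 h. LPS raised 25.3% of them at 3 h, and raised 27.3% and lowered 28.3% at 18 h. S100a8, a calgranulin of myeloid cells, stood at 1.95 ± 1.01 CPM in untreated cells, 5.18 ± 2.46 in S14 and 45.5 ± 4.04 in LPS at 18 h. Wfdc17, a protein with the same type of domain as Slpi, stood at 237 ± 21.6, 349 ± 25.5 and 997 ± 24.5 CPM in those groups. Lyz1, the copy of Lyz2, fell with LPS at 18 h by 1.47 on the log2 scale (SE 0.226, adjusted p = 4.4e-07). Some reads counted for Lyz1 could belong to Lyz2, and their part in this fall was not tested.

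Lcn2, Hp and Slpi are known from neutrophil granules as well as from macrophages. Of 13 neutrophil markers, the granule genes Elane, Mpo, Ltf, Camp and Ngp were each at most 1.31 CPM in all 24 libraries, and Ly6g had reads in 1 library. The summed level of the 13 markers ran from 26.4 to 38.9 CPM in untreated cells at 3 h, 39.5 to 43.6 in S14 and 72.6 to 100 in LPS at 3 h. At 18 h it ran from 34.1 to 56.9 CPM in untreated cells, 83.4 to 115 in S14 and 156 to 216 in LPS. Csf3r, the receptor for the growth factor G-CSF, made up much of this, at 28.8 ± 6.94, 47.9 ± 4.88 and 108 ± 20.7 CPM at 18 h, as did Mmp8, a collagenase, at 12.8 ± 2.40, 43.9 ± 10.6 and 34.7 ± 6.20 CPM. S100a8, also on this list, stood at 45.5 ± 4.04 CPM in LPS at 18 h, a log2 fold change of 4.52 against untreated cells (SE 0.325, adjusted p = 4.81e-15). Of the 13 markers 4 were tested, and S14 raised 1 at 3 h and 3 at 18 h, against 9.05% and 12.6% of all genes. LPS raised 3 at both times, against 25.3% and 27.3%. S100a9, also tested, was not called with LPS at 18 h (-0.625, SE 1.19, adjusted p = 0.68). The summed level was higher with both agents than in untreated cells at both times, as were Lcn2 and Hp. At 18 h it was higher in LPS than in S14, while the Slpi libraries of both agents overlapped. The part of these markers in the change of Lcn2, Hp and Slpi was not tested. Of 8 hepatocyte markers the sum was at most 1.65 CPM in any library, with Alb, Ttr and Fgb at 0 in every group, and of 7 epithelial markers it was at most 1.82 CPM. Of 7 fibroblast markers the sum ran from 10.3 to 17.9 CPM in LPS at 18 h and to at most 4.41 CPM elsewhere. Only Dcn of these was tested, and LPS raised it at 18 h (5.25, SE 0.670, adjusted p = 2.67e-08). Col1a2, Col3a1, Pdgfra and Lum had 0 reads in that group. Mitochondrial transcripts, a rough sign of RNA quality, summed to 13300 to 14600 CPM in untreated cells, 9790 to 12200 in S14 and 6110 to 9210 in LPS at 18 h. At 3 h they summed to 13500 to 17500 CPM in untreated cells, 15400 to 17900 in S14 and 17100 to 19100 in LPS. Of the 13 on this list, 10 had reads in any library. With LPS at 18 h, 6 of the 8 tested were called lower and 1 higher, beside 28.3% and 27.3% of all genes. S14 at 18 h lowered 3 and raised 0, beside 11.6% and 12.6%. LPS at 3 h raised 3 and lowered 0, beside 25.3% and 30.2%. The part of mitochondrial transcripts in the results at 18 h was not tested.

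Of 27 genes that regulate acute-phase transcription, 22 were tested, and S14 raised 17 and lowered 3 at 3 h, and raised 9 and lowered 3 at 18 h. LPS raised 17 and lowered 3 at 3 h, and raised 15 and lowered 4 at 18 h. Over all tested genes, S14 raised 9.05% and lowered 6.20% at 3 h, and raised 12.6% and lowered 11.6% at 18 h. LPS raised 25.3% and lowered 30.2% of them at 3 h, and raised 27.3% and lowered 28.3% at 18 h. Nfkbiz, which encodes the atypical IkB protein IkB-zeta, stood at 52.2 ± 3.63 CPM untreated, 126 ± 22.4 in S14 and 733 ± 17.6 in LPS at 3 h, and at 44.8 ± 16.4, 37.2 ± 4.00 and 62.9 ± 12.5 CPM at 18 h. Cebpd, the gene of C/EBP-delta, stood at 72.6 ± 6.19, 283 ± 21.1 and 816 ± 38.8 CPM at 3 h and at 48.5 ± 3.78, 69.8 ± 7.46 and 50.0 ± 22.7 CPM at 18 h. The effect of LPS shrank for Nfkbiz (-3.31, SE 0.251, adjusted p = 1.21e-10) and for Cebpd (-3.43, SE 0.267, adjusted p = 4.21e-10). Among the 6 genes it grew for Saa3, Hp and Slpi. It shrank for Cp (-3.67, SE 0.267, adjusted p = 3.91e-15) and moved further down for Lyz2 (-1.23), and growth for Lcn2 was not called by edgeR.

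Cebpb, the gene of C/EBP-beta, stood at 18 h at 119 ± 22.0 CPM untreated, 160 ± 16.9 in S14 and 654 ± 65.7 in LPS, after 167 ± 25.7, 321 ± 27.4 and 591 ± 69.7 CPM at 3 h. The effect of LPS on Cebpb grew by 0.63 (SE 0.158, adjusted p = 0.00113) and that of S14 shrank (-0.52, SE 0.161, adjusted p = 0.0221). Stat3, the gene of the transcription factor downstream of the interleukin 6 receptor, stood at 123 ± 5.93, 156 ± 10.3 and 504 ± 35.1 CPM at 3 h and at 120 ± 26.1, 238 ± 6.88 and 252 ± 24.3 CPM at 18 h. At 18 h no difference between S14 and LPS was called for Stat3 (-0.08, SE 0.098, adjusted p = 0.544). Of all tested genes, 21.3% were called higher and 21.3% lower in that comparison. Among the cytokines that drive acute-phase genes, Il6 reached 319 ± 34.5 CPM in LPS and 8.26 ± 2.36 CPM in S14 at 3 h, and 3.68 ± 2.33 CPM in LPS at 18 h. Il1b reached 4010 ± 527 CPM in LPS and 503 ± 126 CPM in S14 at 3 h, and stood at 1700 ± 867 and 13.0 ± 3.47 CPM at 18 h.

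**Figure D4:**
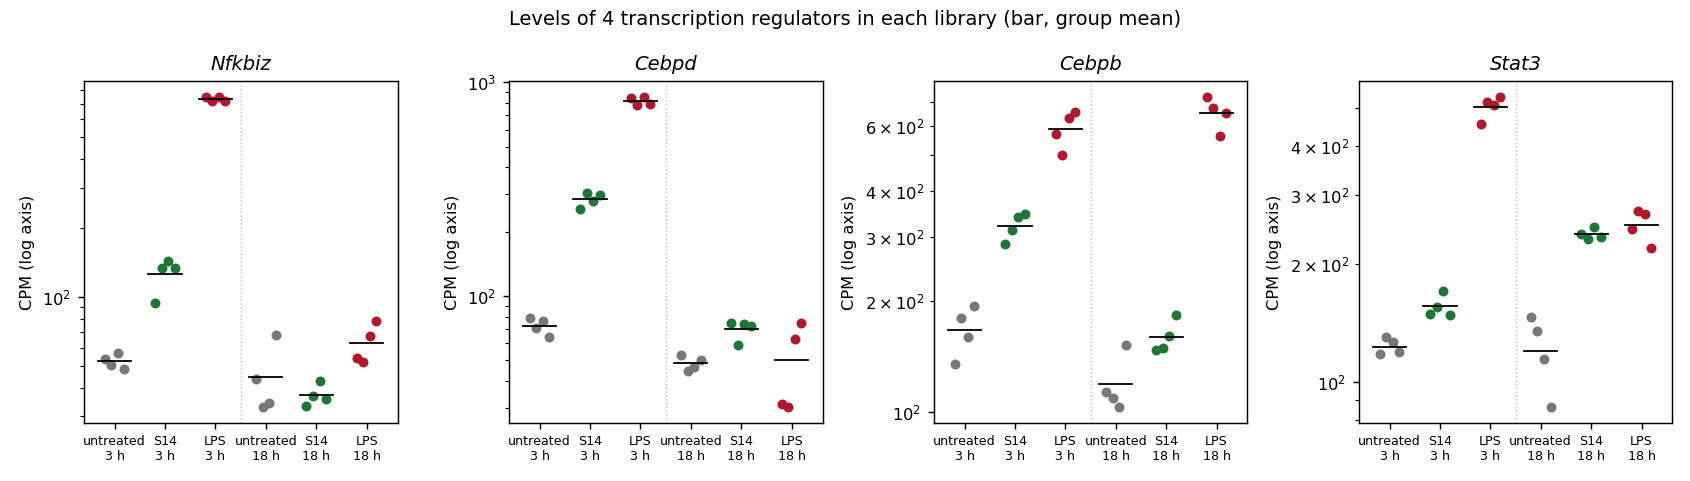
Level of Nfkbiz, Cebpd, Cebpb and Stat3 in CPM on a log axis, with 1 point per library and a bar at the group mean, in the same colours and group order as the plot of the 6 genes; each panel has its own axis. Nfkbiz and Cebpd were highest in LPS at 3 h and far lower in LPS at 18 h. With LPS at 18 h edgeR still called Nfkbiz higher than untreated (0.50, SE 0.180, adjusted p = 0.0225), and did not call Cebpd (adjusted p = 0.831). The Cebpd mean in S14 at 18 h was above the untreated mean. Cebpb stayed high with LPS at 18 h, and the Stat3 means at 18 h were 238 in S14 and 252 in LPS.

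Of 27 genes of iron, heme and copper handling, the processes that Hp, Cp and Lcn2 belong to, 23 were tested. S14 raised 7 of them at 3 h, and raised 7 and lowered 4 at 18 h. LPS raised 6 and lowered 9 at 3 h, and raised 11 and lowered 9 at 18 h. Over all tested genes, S14 raised 9.05% at 3 h, and raised 12.6% and lowered 11.6% at 18 h. LPS raised 25.3% and lowered 30.2% of them at 3 h, and raised 27.3% and lowered 28.3% at 18 h. Hmox1, the enzyme that breaks down heme, stood at 233 ± 62.7 CPM untreated, 237 ± 14.7 in S14 and 3000 ± 266 in LPS at 18 h. Fth1, the heavy chain of the iron store ferritin, stood at 14100 ± 2480, 33200 ± 1770 and 60800 ± 627 CPM in those groups. Of 21 protease inhibitors, the class of Slpi, 12 were tested, and S14 raised 2 at 3 h, and raised 5 and lowered 1 at 18 h. LPS raised 4 and lowered 3 at 3 h, and raised 8 and lowered 3 at 18 h, beside the same shares of all genes. Timp1, an inhibitor of matrix proteases, rose with LPS to 225 ± 28.3 CPM at 18 h and stood at 1.50 ± 0.841 CPM with S14, while the Slpi libraries of both agents overlapped.

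Likeness to each of the 6 genes was measured as Pearson's r of log2 CPM over all 24 libraries among 9058 tested genes of at least 10 CPM in some group. The libraries share the same 6 groups, so r mostly follows the group means and is given as a description. Saa3 was most like Aoah (0.979), the gene of acyloxyacyl hydrolase, then Lcn2 and the chemokine gene Ccl5 (both 0.977). Lcn2 was most like Saa3, then Procr (0.971) and Aoah (0.968). Hp was most like Prdx5 (0.975), the gene of peroxiredoxin 5, then Saa3 (0.962) and Vmp1 (0.949). Slpi had lower values, with Cox5a (0.912), Ndufc2 (0.886) and Ly6i (0.884), and Ly6i stood at 8.95 CPM in S14 and 34.7 CPM in LPS at 18 h and at most 0.735 CPM as a mean in the other 4 groups. Cp was most like Mcoln2 (0.983), Pik3ap1 (0.975) and Zbp1 (0.973). Lyz2 was most like its copy Lyz1 (0.954), with which it may share reads, then Hfe (0.942). Within the 6 genes, r ran from 0.606 to 0.977 among Saa3, Lcn2, Hp, Slpi and Cp, and from -0.555 to -0.168 between Lyz2 and each of these.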

How the data were processed

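The authors deposited whole read counts per gene for 24 libraries, with no normalization, and a second table, a signal of reads divided by 1 size factor per library. Multiplied back, the second table's values lay within 8.6e-10 of whole reads, and the totals of the 6 genes differed by at most 0.2141% between the tables. Per the submitters' processing notes, the genome was GRCm38 and the tools were STAR 2.6.1a, cutadapt 1.18, featureCounts 1.6.4 in Subread, FastQC and DESeq2. No source used here gives their order, the strand setting, the handling of multiply matching reads or the annotation release. Column names of the counts give the control as "Veh", and the labels call it untreated. Reads of the 7 ribosomal RNA entries, 0.1322% to 0.4685% per library, were set aside.

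Genes were filtered with filterByExpr by group (minimum count 10, minimum total 15), scaled by TMM and tested with edgeR 4.0.16 (quasi-likelihood F test, robust), 1 mean per group, 18 residual degrees of freedom. SE was taken as the size of the log2 fold change over the root of F. The script was tested on simulated data. Positions are from GENCODE M21. The genes and lists were chosen with earlier results of these data known. Named are the 6 genes, up to 5 called genes per list and comparison with the largest change at 10 CPM or more, and the 3 genes most like each, of which 1 is not reported here; Saa2, Hps3 and marker genes were added for identity checks. Intervals and floors cover counting error only. Alternatives were DESeq2 1.42.0, its size factors, no filter, only the groups compared, a replicate block, the second table, spike-in scaling and leaving out each library.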

Additional observations from a re-analysis of the deposited data

Results flagged for a closer look

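In groups of 4 libraries, 5 of 36 sets of values held a library far from the other 3; chance gives about 1 in 20. For Lcn2 in untreated cells at 3 h it was the 1 library with reads, at 1.65 CPM, and for Cp in the same group the lowest library, at 0.766 CPM. For Lyz2 it was the highest untreated library at 3 h (15400 CPM), the lowest S14 library at 3 h (13300 CPM) and the highest untreated library at 18 h (37200 CPM), which is replicate 4.

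The effect of an agent differed between 3 h and 18 h, by the test of that difference, for 9 pairs of gene and agent. For S14 the log2 differences were 0.77 for Saa3, 1.71 for Hp, 3.49 for Slpi and -1.77 for Cp. Of all genes, 7.61% were called higher and 8.98% lower in that test. The Saa3 call with S14 was lost in 14 of 24 alternatives and the Hp call in 9 of 24. For LPS the log2 differences were 3.06 for Saa3, 3.43 for Hp, 2.60 for Slpi, -3.67 for Cp and -1.23 for Lyz2, beside 25.1% and 26.1% of all genes. The Slpi call with LPS was lost in 1 of 24 alternatives. The difference between S14 and LPS changed between the times for Saa3 (-2.29), Lcn2 (-2.56), Hp (-1.72), Cp (1.91) and Lyz2 (0.98). Of all genes, 21.5% were called higher and 19.2% lower there, and the Lyz2 call was lost in 1 of 24 alternatives.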

How the results depend on the processing

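Over 60 pairs of gene and comparison, 1100 values were recomputed. Of these, 1029 kept direction and side of the threshold, 31 kept direction and lost the call, 14 gained it and 26 turned sign.

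Lyz2 with S14 at 3 h, -0.001, turned to 0.019 with DESeq2 and with its size factors, to 0.007 with only the groups compared and to 0.108 with either spike-in scaling. With only the groups compared, 1 gene, Lyz2, was higher in S14 than in LPS at 3 h. Leaving out 1 library gave ranges that cross 0 for Lyz2 with S14 at 3 h (-0.017 to 0.036), Slpi in S14 against LPS at 18 h (-0.182 to 0.024), untreated cells over time for Lcn2 (-1.211 to 4.281), Hp (-0.025 to 0.567) and Slpi (-0.848 to 0.091), and growth of the effect on Lcn2 for S14 (-3.584 to 1.904) and LPS (-1.024 to 4.467). Genes of the 6 with growth of the S14 effect called numbered 1 to 3 under these.

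Scaling to spike-in reads moved the median of all genes from -0.02 to -0.98 for S14 at 18 h, from -0.04 to -0.68 for LPS at 18 h and from -0.01 to 0.82 for untreated cells over time. Under it Lyz2 turned to 0.19 for LPS at 3 h and to -0.083 for S14 against LPS at 3 h, also without replicate 4 of the untreated cells at 18 h, Slpi to 0.425 over time in untreated cells, and growth of the S14 effect to -0.247 for Saa3 and -0.555 for Lcn2. Without that replicate Lcn2 over time in untreated cells was -0.904. Of the 6, 1 was then lower with S14 at 18 h, 0 higher than LPS at 18 h, 1 higher and 2 lower in growth with S14 (1 higher without the replicate) and 1 higher in S14 against LPS over time. All genes called higher and lower went from 1060 and 726 to 346 and 28 for S14 at 3 h, 2964 and 3536 to 2341 and 955 for LPS at 3 h, 1480 and 1364 to 106 and 7533 for S14 at 18 h, 3200 and 3317 to 695 and 4526 for LPS at 18 h, 2775 and 2624 to 612 and 1620 for S14 against LPS at 3 h, 2496 and 2500 to 519 and 1396 at 18 h, 2249 and 2298 to 5426 and 213 for untreated cells over time, 892 and 1052 to 20 and 4095 for growth with S14, 2943 and 3057 to 381 and 4476 with LPS, and 2518 and 2255 to 576 and 592 for their difference. Many of these counts rest on replicate 4 of the untreated cells at 18 h, which held 705 spike-in reads. Without it the same scaling gave, in this order, 679 and 119, 3326 and 1388, 133 and 2157, 1445 and 2573, 1066 and 2433, 869 and 2828, 2050 and 372, 26 and 1401, 858 and 3404, and 1221 and 1360, and medians of -0.49 for S14 and -0.19 for LPS at 18 h and 0.32 for untreated cells over time. The cause was not tested.

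Deviations of same-numbered libraries correlated weakly, from -0.03987 to 0.2234, above 0 in 25 of 28 pairs and over 0.1 in 5. The own number was the highest of the 4 in 18 of the 28, where chance gives about 1 in 4. Since not every pair was over 0.1, the main fit did not pair libraries by number. That cut-off does not decide whether same-numbered libraries share an animal, so the replicate block is given beside the main fit. The replicate block left the counts of the 6 genes as they were except for growth of the S14 effect, where Saa3 lost its call (0.769, adjusted p = 0.0614), and S14 against LPS at 3 h, where Slpi gained one (-0.96, adjusted p = 0.0497), 5 lower in place of 4. Few reads limit Lcn2 in untreated cells and Slpi at 3 h.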
